A study of Mus musculus with 8 samples.

Results

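The epidermal differentiation complex (EDC) is a cluster of genes on mouse chromosome 3 whose proteins build the cornified envelope of the upper epidermis, together with calcium-binding S100 proteins. Members were taken by gene symbol. They were the late cornified envelope genes (Lce with a digit), the small proline-rich genes (Sprr), the S100a genes with a digit, the fused-type genes Flg, Flg2, Hrnr, Rptn, Tchh, Tchhl1 and Crnn, and a set of other envelope genes, Ivl, Lor, Crct1, Kprp and Cnfn. The rule took 56 of the 18770 genes listed, with 20 in Lce, 13 in S100a, 11 in Sprr, 7 in the fused-type group and 5 in the other envelope group. Of these, 55 lie on chromosome 3 between positions 90511034 and 93564643 of GRCm38 (mm10), a span of 3.05 Mb, and Cnfn lies on chromosome 7.

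RNA came from dorsal dermis with hair follicles of wildtype C57BL/6 mice of 7 to 8 weeks, collected at D4 after depilation once the interfollicular epidermis had been taken off. The study's methods name the substrain C57BL/6J. The vehicle group (VC) had received 20 µl of 65% ethanol on the skin, and the alpinetin group (AP) had received alpinetin, a plant flavonoid, at 3 mg/ml in the same volume of 65% ethanol. The comparison asked which transcripts differed between AP and VC skin, with 4 libraries in each group. The library columns, named VC.1 onward and AP.1 onward, carried no link to individual mice, so p-values measure the spread between these libraries.

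As background, keratinocytes that leave the basal layer stop dividing and switch on EDC genes in sequence. Involucrin and the small proline-rich proteins are cross-linked early beneath the cell membrane, loricrin and the late cornified envelope proteins reinforce the envelope later, and filaggrin and its fused-type relatives bundle keratin filaments or, as trichohyalin does, harden the inner root sheath of the hair follicle. S100 proteins are small calcium sensors with many roles, and S100a8 and S100a9 are produced by both neutrophils and stressed keratinocytes.

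The tissue label was checked against marker genes. Fibroblast and follicle transcripts were present in every library, with 21330.1 to 84986 normalized counts of the collagen gene Col1a1 and 219 to 5743 of the inner root sheath keratin gene Krt71. Transcripts of the suprabasal keratin genes Krt1 and Krt10, which mark differentiating interfollicular epidermis, were also present in all 8 libraries, with at least 913 and 1302 normalized counts. Normalized counts are reads divided by 1 size factor per library. Total reads on listed genes ran from 6454563 to 7264151 in VC and from 8507783 to 11190113 in AP. Mitochondrially encoded genes took 48.4% ± 5.81 (SD, n = 4) of VC reads and 8.66% ± 2.63 (SD, n = 4) of AP reads, so the median depth without them was 3534619.5 reads in VC and 8974689.5 in AP. This difference in depth and mitochondrial share follows the groups and cannot be told apart from the treatment in the values below.

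Most EDC genes were higher in AP than in VC. Among the 45 members that reached 3 normalized counts in 4 or more libraries, 14 rose (31.1%) at an adjusted p under 0.05, against 6.33% of all 15964 genes tested. The median log2 fold change was 2.26 over these members and 0.06 over all genes tested, and 38 of the 45 lay above 0. All fold changes are AP over VC on the log2(normalized count + 1) scale, which understates changes of low genes. No member fell. limma called 0 members lower, against 4.0% of all genes, with 3 members lower at an unadjusted p under 0.05, while edgeR, DESeq2 and limma-voom each called 0 lower, with 4 at an unadjusted p under 0.05. The AP and VC ranges did not overlap in 10 members, all higher in AP (background 10.3%), and in 0 members lower in AP (background 8.91%). Lce3d and Sprr2h passed the filter with no VC library at 3 normalized counts, and 3 members passed with at most 1 such library, so counts over tested members lean toward those high in AP. In bulk tissue, fewer cells of a type and less RNA per cell cannot be told apart.

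Calls were uneven among subfamilies. All 5 other envelope genes rose, as did 4 of 6 tested fused-type genes and 3 of 6 tested Sprr genes. Among these Sprr genes, Sprr2h had no VC library at 3 normalized counts and was tested only through AP. In Lce, 1 of 17 tested genes rose (5.88%), and in S100a 1 of 11 (9.09%), both shares near the background with limma. edgeR and DESeq2 each called 5 of the 17 Lce genes, against 6.28% and 10.5% of all genes. The number of members that rose depended on single AP libraries. It was 4 without AP.3 and 5 without AP.4, and the 4 were Flg, Hrnr, Ivl and Tchh, joined by Crct1 without AP.4. By tool, edgeR called 18 members and DESeq2 20, each keeping all 14, and limma-voom called 6, losing Cnfn, Flg2, Hrnr, Kprp, Lce1m, S100a9, Sprr1b and Sprr2h. Over all genes, the count in either direction dropped from 1650 to 303 without AP.3, 393 without AP.4, 553 without AP.2 and 846 without VC.1.

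**Figure D1:**
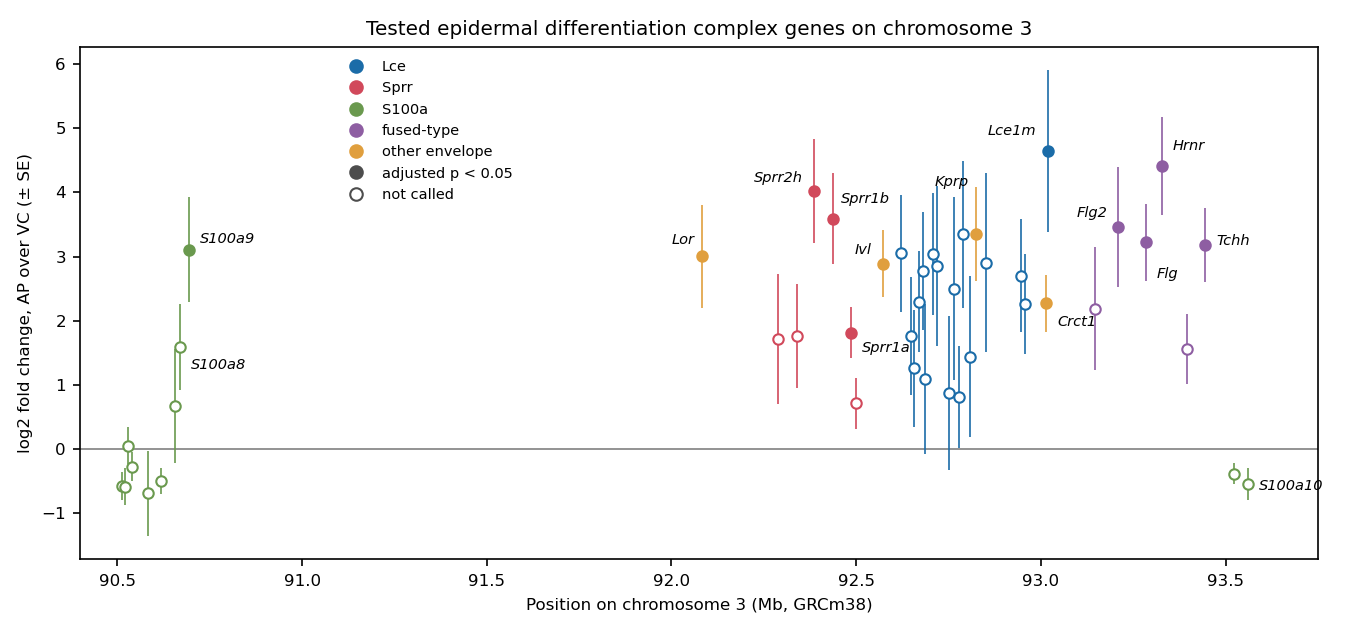
Position of the members on chromosome 3 of GRCm38 (horizontal axis, Mb) against their log2 fold change, AP over VC (vertical axis, bars SE), by subfamily. The S100a genes lie at both ends of the span, and the genes between them that were tested lie above 0.

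Genes of the envelope outside the large families rose together. Lor (ENSMUSG00000043165, chr3:92080271-92083142) encodes loricrin, the main protein of the mature envelope. In order of library number, it had 555, 399, 692 and 266 normalized counts in VC and 5695, 416, 10478 and 6788 in AP, an order kept for all values below. AP.1, AP.3 and AP.4 lay far above every VC library, whereas AP.2 fell inside the VC range. Lor rose by 3.001 on the log2 scale (SE 0.80, adjusted p 0.0386). Ivl (ENSMUSG00000049128, chr3:92570902-92573735), for involucrin, had 78.2, 93.1, 61.4 and 43.1 normalized counts in VC and 278, 192, 1014 and 1122 in AP. The groups did not overlap, with AP.3 and AP.4 highest and AP.2 lowest of the AP libraries. Ivl rose by 2.89 on the log2 scale (SE 0.52, adjusted p 0.0113).

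Kprp, a keratinocyte proline-rich protein gene (chr3:92823074-92827247), had 12.7, 11.8, 13.7 and 16.9 normalized counts in VC and 178, 22.1, 475 and 251 in AP. The VC values were tight, and the groups did not overlap even though AP.2 was close to VC.4. Crct1, a cysteine-rich gene (chr3:93014205-93015687), had 200.1, 73.9, 71.0 and 80.6 normalized counts in VC and 587, 188, 814 and 532 in AP. Here AP.2 lay below VC.1, the highest VC library. Cnfn (chr7:25367620-25369724) encodes cornifelin and lies outside the cluster, with 40.02, 38.4, 62.8 and 15.0 normalized counts in VC and 107, 119, 342 and 331 in AP. Again the groups were separate, with AP.3 and AP.4 above AP.1 and AP.2. The log2 fold changes were 3.35 for Kprp (SE 0.74, adjusted p 0.0215), 2.27 for Crct1 (SE 0.44, adjusted p 0.0151) and 2.45 for Cnfn (SE 0.49, adjusted p 0.0167).

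Per kilobase of the longest transcript, Lor had the highest mean level of the 5, at 269 normalized counts per kb in VC and 3285 in AP, followed by Crct1 with 148 and 738. The Lor call did not hold when any single library other than AP.2 was left out, with adjusted p of 0.0718, 0.0661, 0.0531 and 0.0802 without VC.1, VC.2, VC.3 and VC.4, and 0.0608, 0.112 and 0.102 without AP.1, AP.3 and AP.4 (range over all alternatives 0.000331 to 0.112). Without AP.3 the adjusted p was 0.0719 for Kprp, 0.06 for Cnfn and 0.0512 for Crct1, and without AP.4 it was 0.067 for Kprp and 0.055 for Cnfn. Kprp and Cnfn also did not pass with limma-voom, at 0.244 and 0.0609. Ranges over the alternatives were 2.02e-07 to 0.244 for Kprp, 2.27e-05 to 0.0609 for Cnfn and 2.41e-05 to 0.0512 for Crct1.

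Among the fused-type genes, Flg, Flg2, Hrnr and Tchh rose, while Rptn and Crnn did not pass the test. Flg (ENSMUSG00000102439, chr3:93273523-93293686) encodes profilaggrin, which is cleaved to keratin-binding filaggrin. It had 29.1, 105, 96.9 and 73.1 normalized counts in VC and 387, 216, 1420.0 and 1465 in AP. The groups did not overlap, and AP.3 and AP.4 were highest. Hrnr (chr3:93319749-93333570), for hornerin, had 27.3, 10.3, 13.7 and 9.38 normalized counts in VC and 302, 49.1, 747 and 884 in AP. Its order of AP libraries was the same as that of Flg, with AP.2 lowest and still above VC. Flg2 (chr3:93197278-93221391) had 36.4, 22.2, 32.8 and 7.50 normalized counts in VC and 467, 21.6, 788 and 444 in AP. As with Lor, AP.2 lay within the VC range and the other AP libraries far above it. Flg rose by 3.22 on the log2 scale (SE 0.60, adjusted p 0.013), Hrnr by 4.41 (SE 0.76, adjusted p 0.0104) and Flg2 by 3.47 (SE 0.94, adjusted p 0.0404).

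Tchh (ENSMUSG00000052415, chr3:93442330-93449077) encodes trichohyalin of the inner root sheath and medulla. It had 366, 265, 247 and 99.4 normalized counts in VC and 709, 4478, 4193 and 1223 in AP. The groups did not overlap, but here AP.2 was the highest library and AP.1 the lowest of AP, unlike in Flg, Hrnr and Flg2. Tchh rose by 3.18 on the log2 scale (SE 0.57, adjusted p 0.0113). The inner root sheath markers, summed over 9 genes, had 5766, 4683, 5955 and 1489 normalized counts in VC and 3301, 13184, 14866 and 5229 in AP, with AP.2 and AP.3 highest as for Tchh. Krt71 was the most abundant of these, Krt74 was not in the table, and the part of this marker difference in the Tchh value was not tested.

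Rptn, for repetin (chr3:93393699-93399442), had 10.9, 16.3, 24.6 and 13.1 normalized counts in VC and 22.5, 27.5, 64.3 and 126 in AP. AP.1 lay below VC.3, so the groups overlapped. Crnn, for cornulin (chr3:93144787-93149819), had 30.9, 19.2, 17.8 and 0 normalized counts in VC and 23.9, 67.4, 101.1 and 28.6 in AP. AP.1 and AP.4 fell below VC.1. The log2 fold changes were 1.56 for Rptn (SE 0.55, adjusted p 0.0843) and 2.18 for Crnn (SE 0.96, adjusted p 0.152). Crnn ran from 1.05 without VC.4 to 2.72 without VC.1 and passed under total-count scaling only (0.0183, range 0.0183 to 0.333). Tchhl1 (chr3:93468754-93471980) was too low to be tested, with 4 reads in VC, all in VC.3, and 72 in AP, all in AP.2 and AP.3. Flg and Tchh passed the threshold in all 19 alternatives. Hrnr did not with limma-voom (adjusted p 0.161, range 7.47e-07 to 0.161). Of the left-out libraries only AP.1 brought Rptn past the threshold (adjusted p 0.0478, range 0.00563 to 0.234). Rptn also passed with DESeq2 (adjusted p 0.0149) and under total-count scaling (0.00563). Flg2 passed without AP.2, and its adjusted p was 0.0654, 0.0638, 0.0567 and 0.0845 without VC.1, VC.2, VC.3 and VC.4, and 0.0676, 0.121 and 0.107 without AP.1, AP.3 and AP.4 (range 0.000397 to 0.301).

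Of the 11 Sprr genes, 6 were tested and all 6 lay above 0, with a median log2 fold change of 1.78 and a range from 0.71 to 4.02. Sprr1a, Sprr1b and Sprr2h rose. Sprr1a (ENSMUSG00000050359, chr3:92483952-92485895) had 131, 137, 104 and 186 normalized counts in VC and 187, 655, 878 and 501 in AP. The groups barely failed to overlap, since AP.1 was almost equal to VC.4, and AP.2 and AP.3 were highest. Sprr1b (ENSMUSG00000048455, chr3:92436809-92438789) had 9.10, 20.7, 39.6 and 13.1 normalized counts in VC and 42.1, 259, 456 and 516 in AP. AP.1 was again close to the highest VC library, and the other AP libraries were well above it. Sprr1a rose by 1.81 on the log2 scale (SE 0.40, adjusted p 0.0212) and Sprr1b by 3.59 (SE 0.71, adjusted p 0.0165). Both encode small cross-bridging proteins of the envelope.

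Sprr2h (chr3:92385685-92387324) had 0, 0, 1.37 and 0 normalized counts in VC and 4.35, 15.1, 45.3 and 40.1 in AP. Every AP library exceeded the single VC library with a read, and the gene passed the filter only through AP. Pooled over libraries this was 1 read in VC against 181 in AP, a ratio of 67.9 with an exact 95% interval from 12.0 to 2698, and the fitted log2 fold change was 4.02 (SE 0.81, adjusted p 0.0168). Such intervals cover counting error only. The ratios to a floor, given for genes without VC reads, leave out counting error in the AP reads and the spread between libraries. Sprr4 (chr3:92500263-92500493) had 32.7, 63.5, 23.2 and 39.4 normalized counts in VC and 34.1, 83.0, 84.7 and 58.6 in AP. The groups overlapped widely, and the log2 fold change was 0.71 (SE 0.40, adjusted p 0.258). Per kb, Sprr1a was at 173 normalized counts in VC and 689 in AP, Sprr4 at 172 and 282, and Sprr1b at 24.9 and 384.

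The untested Sprr genes had few reads. Sprr2a1 had 1 read in VC and 21 in AP (ratio 7.88, exact 95% interval 1.27 to 326), Sprr2a2 had 2 and 22 (ratio 4.13, 1.02 to 36.2), and Sprr2e had 1 and 23 (ratio 8.63, 1.40 to 356). Sprr2i had no VC read and 11 AP reads, which is 1.38 times a floor of 3 reads over the VC group and is not a lower bound. Sprr2f had 0 and 7 reads. These genes resemble each other in sequence: Sprr2a1 and Sprr2a2 overlap in the annotation, and how reads that fit several genes were counted is not given in the sources used here. The Sprr calls depended on AP libraries. The adjusted p of Sprr1a was 0.0623 without AP.2, 0.0687 without AP.3 and 0.0592 without AP.4 (range 4.89e-05 to 0.0687). Without AP.3 and AP.4 it was 0.0569 and 0.0528 for Sprr1b (range 1.62e-07 to 0.146), and 0.0781 and 0.0658 for Sprr2h (range 0.000304 to 0.0781).

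All 17 tested Lce genes had a fold change above 0, and with limma only Lce1m rose. edgeR and DESeq2 each called Lce1m and also Lce1a2, Lce1c, Lce1e and Lce6a, limma-voom called none, and a pseudocount of 5 or the criteria of the study's methods added Lce1e and Lce6a. The median over the 17 tested genes was 2.49 on the log2 scale, with a range from 0.80 to 4.65. Lce1m (ENSMUSG00000027912, chr3:93017810-93019060) had 12.7, 25.1, 49.2 and 1.88 normalized counts in VC and 1249.7, 17.3, 1319.9 and 676 in AP. AP.1, AP.3 and AP.4 far exceeded every VC library, and AP.2 lay within the VC range. Lce1m rose by 4.65 on the log2 scale (SE 1.26, adjusted p 0.0404). Lce1a1 (chr3:92646535-92648307) had 140.1, 36.9, 91.5 and 28.1 normalized counts in VC and 394, 19.9, 706 and 319.7 in AP. Lce1b (chr3:92655650-92656926) had 135, 29.6, 138 and 26.3 in VC and 277, 16.7, 467 and 219 in AP. In both genes AP.2 was the lowest of all 8 libraries and the other AP libraries were above every VC library.

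The log2 fold changes were 1.76 for Lce1a1 (SE 0.92, adjusted p 0.222) and 1.25 for Lce1b (SE 0.92, adjusted p 0.38). Lce1i (chr3:92777210-92778899), the tested gene of the subfamily with the smallest difference, had 25.5, 25.1, 69.6 and 18.8 normalized counts in VC and 75.4, 7.01, 162 and 88.7 in AP. AP.2 was again the lowest library, and the log2 fold change was 0.80 (SE 0.80, adjusted p 0.525). With 1 library left out, Lce1i ran from 0.28 without AP.3 to 1.73 without AP.2, and Lce1b from 0.71 without AP.3 to 2.28 without AP.2, and neither passed. The mean log2 level over the 17 tested genes was 3.88, 2.93, 4.25 and 2.12 in VC and 6.14, 2.49, 7.32 and 6.55 in AP. Thus AP.2 stood among the VC libraries. Without AP.2, 20 members of the EDC rose in place of 14, and the members gained were Lce1a1 (adjusted p 0.0208, range 0.0208 to 0.481), Lce1a2, Lce1c, Lce1d, Lce1e, Lce1j, Lce1l and Lce6a. The Lce1m call was lost without VC.1 (adjusted p 0.084), VC.2 (0.0547), VC.4 (0.0845), AP.1 (0.0697), AP.3 (0.119) or AP.4 (0.103), with a range of 0.000469 to 0.353 over the alternatives.

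Lce3 genes had few reads. Lce3c, the most abundant, had 4 reads in VC, all in VC.3, and 77 in AP. The gene lay 2.70 higher on the log2 scale (SE 0.89, adjusted p 0.0696) and passed without VC.3 and under total-count scaling. Leaving out VC.3 removes every VC read of Lce3c, so that call decides nothing. Lce3a had 1 read in VC and 2 in AP, Lce3b had 0 and 9, and Lce3f had 0 and 22, and none of these was tested. The AP level was 1.13 times the floor of 3 reads over the VC group for Lce3b and 2.75 times for Lce3f. Neither ratio is a lower bound. Lce3d had 2 and 39 reads, a ratio of 7.32 with an exact 95% interval from 1.90 to 62.6. Lce genes share sequence. In 18 of the 20 listed, more than 5% of the 50-base words of the transcripts also occurred in another gene, so values of single Lce genes are uncertain to that degree. Tested Lce transcripts had a median of 19.9% shared words.

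In the main test, S100a was the only subfamily with a median log2 fold change below 0, and differences between subfamilies were not tested. The median over the 11 tested genes was -0.39 on the log2 scale, with 4 above 0 and 7 below, and this direction turned to 0.48 when libraries were scaled by total counts, where the median of all genes also moved up by 0.84 to 0.90. The mean of the 11 genes, 0.17, differed in sign from their median. The most abundant members per kb were S100a10, S100a6 and S100a11. Of the 50-base words of S100a11, 41.1% also occurred in another gene, so its level is uncertain to that degree. S100a10 (ENSMUSG00000041959, chr3:93555080-93564643), a partner of annexin A2, had 7142, 3699, 3834 and 3975 normalized counts in VC and 3982, 2699.7, 2368 and 3497 in AP. VC.1 was far above the rest, and AP.1 lay above VC.2, VC.3 and VC.4. S100a6 (chr3:90612882-90624181) had 6248, 4124, 4339 and 4965 normalized counts in VC and 4163, 3405, 2603 and 3744 in AP. Only AP.1 entered the VC range.

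S100a11 (chr3:93520488-93526287) had 2567, 2536, 2301 and 2921 normalized counts in VC and 1741, 1812, 1935 and 2435 in AP. AP.4 was the one AP library inside the VC range. The log2 fold changes were -0.54 for S100a10 (SE 0.25, adjusted p 0.167), -0.50 for S100a6 (SE 0.20, adjusted p 0.126) and -0.39 for S100a11 (SE 0.16, adjusted p 0.13), and under total-count scaling they became 0.33, 0.37 and 0.48. S100a3 (chr3:90560578-90602702), known from the hair cuticle, had 211, 111, 68.3 and 15.0 normalized counts in VC and 31.2, 64.2, 61.8 and 27.9 in AP. All AP values lay within the VC range, and the log2 fold change was -0.70 (SE 0.66, adjusted p 0.506), or 0.15 under total-count scaling. With 1 library left out, S100a3 ran from -1.42 without VC.4 to -0.17 without VC.1 (adjusted p 0.0743 and 0.88). In VC, the levels of S100a10, S100a6 and S100a11 were 6806, 6283 and 5051 normalized counts per kb, against 269 for Lor. In AP they were 4579, 4443 and 3876, against 3285 for Lor.

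S100a9 rose, alone in its subfamily. S100a9 (ENSMUSG00000056071, chr3:90692632-90695721) had 3.64, 25.1, 5.46 and 7.50 normalized counts in VC and 13.1, 112, 89.2 and 257 in AP. AP.1 lay below VC.2, so the groups overlapped, and AP.4 was highest. S100a9 rose by 3.11 on the log2 scale (SE 0.82, adjusted p 0.0365). Its binding partner S100a8 (chr3:90668978-90670035), singled out after the values were seen, had 29.1, 44.3, 36.9 and 20.6 normalized counts in VC and 18.1, 145, 111 and 295 in AP. AP.1 was the lowest of all libraries and AP.4 the highest, and S100a8 did not pass the test (difference 1.59, SE 0.68, adjusted p 0.139), although it did without AP.1, with DESeq2 and under total-count scaling. The S100a9 call was lost without VC.1 (adjusted p 0.0825), VC.3 (0.0673), VC.4 (0.0654), AP.2 (0.0978), AP.3 (0.105) or AP.4 (0.107), with a range of 0.000237 to 0.205.

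Neutrophil markers are given beside S100a8 and S100a9. Of 12 such genes 9 were listed and 6 tested, and Cxcl2, which keratinocytes also make, was the one that rose (log2 fold change 2.94, SE 0.73, adjusted p 0.0312). Their sum was 477, 469.9, 289 and 566 normalized counts in VC and 854, 359, 459 and 506 in AP, most of it Il1r2, with a median log2 fold change of 0.31 that ran from 0.26 without AP.2 to 0.67 without VC.2. This median turned to -0.028 with edgeR and -0.022 with DESeq2, so its direction depended on the tool. It was 0.11 with a pseudocount of 5 and 1.02 under total-count scaling. The sum was highest in AP.1, where S100a8 was lowest. Of the markers closest to neutrophils, Retnlg reached at most 12.7 and Ngp at most 2.90 normalized counts in any library, and Ly6g, Ltf and Mpo were not among the genes listed. Csf3r had 47.5 ± 31.0 normalized counts in VC and 25.4 ± 9.67 in AP (SD, n = 4 each). Cxcl2 did not pass without VC.3 (adjusted p 0.0514), AP.1 (0.0521), AP.2 (0.0811), AP.3 (0.0792) or AP.4 (0.0891), with a range of 0.000455 to 0.0891.

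Of the remaining S100a genes none passed the test. S100a1 had 424 ± 69.8 normalized counts in VC and 289.9 ± 82.9 in AP (SD, n = 4 each), a difference of -0.58 (SE 0.22, adjusted p 0.105). S100a13 was at -0.59 (SE 0.29, adjusted p 0.195), S100a16 at -0.28, S100a14 at 0.05 and S100a7a at 0.67. S100a4 had 3 reads in VC and 10 in AP (ratio 1.25, exact 95% interval 0.322 to 7.08), S100a7l2 had 0 and 6, and neither was tested. In the annotation, S100a4 and S100a3 overlap Gm42674 on the same strand, and S100a3 also overlaps S100a2. How reads in such overlaps were counted is not given in the sources used here, so the levels of S100a4 and S100a3 are uncertain. Of the 50-base words of S100a4, 47.4% also occurred in another gene. Transcript length differed among subfamilies. The median longest transcript was 715 bases for tested S100a genes, 706 for Lce, 779 for Sprr, 1779 for the other envelope genes and 8505 for the fused-type genes. Over all genes, the median log2 fold change was -0.16 for transcripts under 1000 bases and 0.27 for those of 4000 bases or more. With this trend removed, the subfamily medians were -0.17 for S100a, 2.74 for Lce, 2.03 for Sprr, 3.02 for the other envelope genes and 2.68 for the fused-type genes. Members called then numbered 13, since Flg2, the longest transcript of the EDC at 20803 bases, did not pass (2.76, adjusted p 0.0997, range 0.000397 to 0.301).

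AP.1 and AP.2 differed from each other by subfamily. Seen after the values were known, this pattern is a description. AP.1 exceeded AP.2 in 15 of 17 tested Lce genes (88.2%) and 4 of 5 other envelope genes, but in 0 of 6 Sprr genes, 3 of 6 fused-type genes and 3 of 11 S100a genes. Over all genes AP.1 exceeded AP.2 in 7739 of 15964 (48.5%). The median difference AP.1 minus AP.2 was 3.86 on the log2 scale in Lce and -1.69 in Sprr, against -0.02 over all genes. The mean log2 level of the Sprr genes was 2.58, 3.89, 4.05 and 3.49 in VC and 4.12, 5.96, 6.59 and 6.40 in AP. That of the other envelope genes was 6.44, 6.08, 6.29 and 5.61 in VC and 8.81, 7.06, 10.07 and 9.65 in AP, and that of the fused-type genes was 5.34, 5.21, 5.40 and 3.86 in VC and 7.40, 6.83, 9.06 and 8.54 in AP. In these 3 subfamilies every AP library lay above every VC library, and AP.3 was highest. For Sprr the margin was small, with AP.1 at 4.12 and VC.3 at 4.05. The Sprr mean includes Sprr2h, which passed the filter only through AP, so the separation of the groups in Sprr decides nothing. The mean log2 level of the S100a genes was 8.45, 8.66, 8.49 and 8.00 in VC and 8.01, 8.81, 8.51 and 8.95 in AP. AP.2 and AP.4 lay above every VC library, and AP.1 and AP.3 lay within the VC range.

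**Figure D2:**
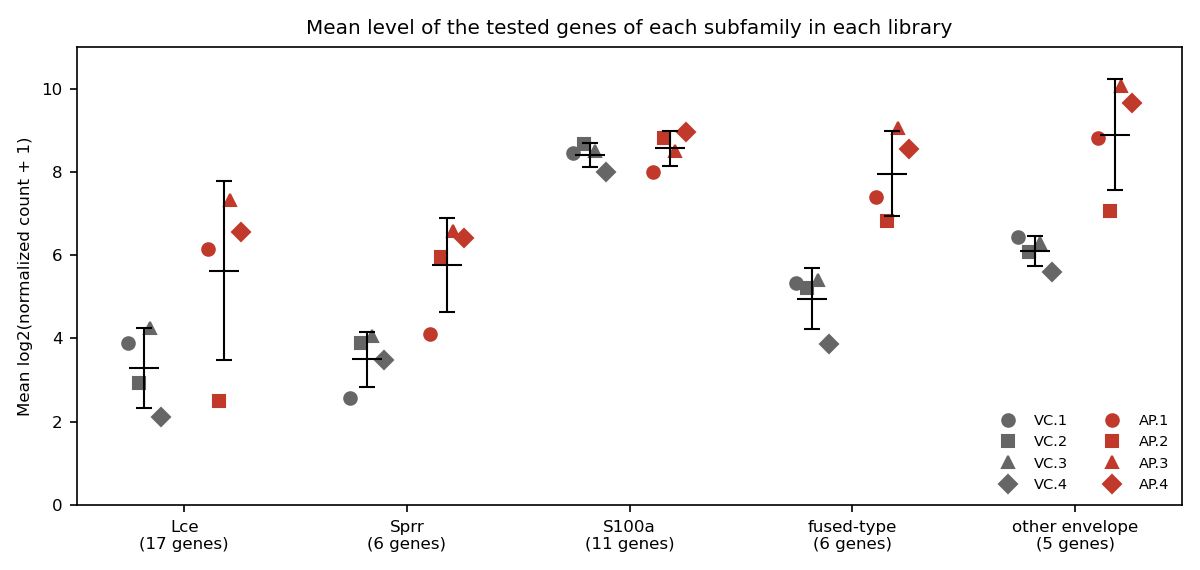
Mean log2(normalized count + 1) of the tested genes of each subfamily (vertical axis) in each VC and AP library (points), with bars for the group mean and SD (n = 4). AP.2 lies with the VC libraries in Lce, while the groups are separate in fused-type and other envelope genes and overlap in part in S100a. In Sprr, AP.1 lies just above VC.3, and the mean includes Sprr2h, which passed the filter only through AP.

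**Figure D3:**
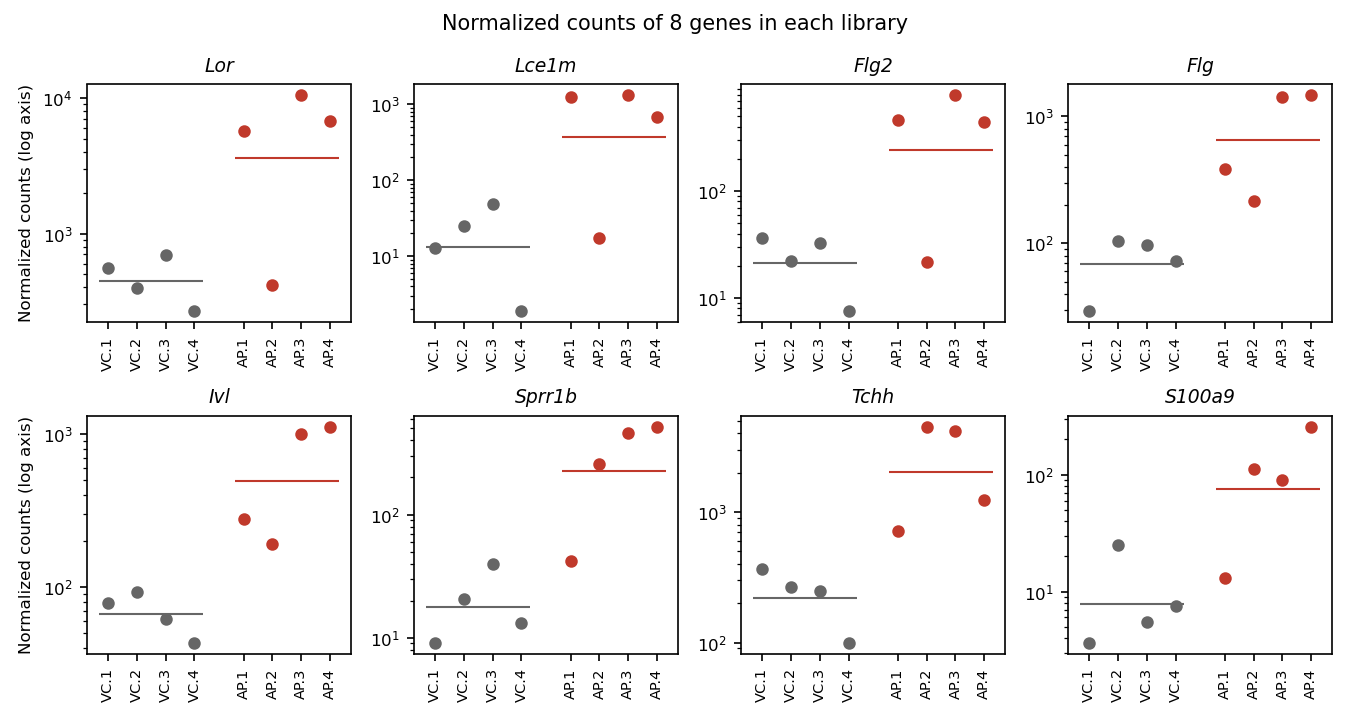
Normalized counts (log axis) of members named in the text in each VC and AP library, with a line at the geometric mean of each group (n = 4). AP.2 falls within the VC range for Lor, Flg2 and Lce1m, and is the highest library for Tchh.

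Genes of the same stretch of chromosome 3 outside the member rule were also examined. Of 10 further genes listed within the span, 6 were tested and 3 rose: Pglyrp4, 2310050C09Rik and 2310046K23Rik, the last named after its value was seen. Gm9774, among the Sprr genes and also picked out from its value, lay lower by 1.66 (adjusted p 0.0642) and did not pass. Pglyrp4, a peptidoglycan recognition protein gene, had 14.6, 31.0, 15.0 and 13.1 normalized counts in VC and 57.3, 49.1, 104 and 58.6 in AP (log2 fold change 1.84, SE 0.40, adjusted p 0.0204). The groups did not overlap. 2310050C09Rik, which lies among the Lce genes, had 18.2, 31.0, 61.4 and 20.6 normalized counts in VC and 215, 37.2, 499.7 and 300.4 in AP (log2 fold change 2.64, SE 0.68, adjusted p 0.0346). As in Lce1m, AP.2 lay within the VC range. Prr9 had 32.4 ± 9.06 normalized counts in VC and 157 ± 124 in AP (SD, n = 4 each), with a log2 fold change of 1.84 and an adjusted p of 0.0591 that became 0.0136 without AP.1 (range 0.00146 to 0.193). Prr9 also passed with edgeR (adjusted p 0.031), with DESeq2 (0.00146) and under total-count scaling (0.00378). Pglyrp3 had no VC read, and Lelp1 and Smcp were not among the genes listed. Without AP.3 and AP.4 the adjusted p was 0.0837 and 0.0575 for Pglyrp4 (range 0.000469 to 0.0837). For 2310050C09Rik it was 0.0806, 0.0548 and 0.0696 without VC.1, VC.2 and VC.4, and 0.052, 0.108 and 0.0958 without AP.1, AP.3 and AP.4 (range 7.54e-05 to 0.209).

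Of 19 tested genes that flank the cluster, Npr1 and Them5 rose and Rab13 fell, a share near that of all genes (6.33% higher, 4.0% lower). The median log2 fold change was -0.06 (mean 0.21), or 0.81 under total-count scaling, and ran from -0.08 without VC.4 to 0.19 without AP.4. Npr1, a natriuretic peptide receptor gene, had 92.5 ± 24.6 normalized counts in VC and 266 ± 121 in AP (SD, n = 4 each), and rose by 1.45 on the log2 scale (SE 0.30, adjusted p 0.0182). Rab13, with 291, 191, 208 and 308 in VC and 125, 126, 73.2 and 102 in AP, fell by 1.22 (SE 0.24, adjusted p 0.0167). Them5, named after its value was seen, rose by 2.64 (SE 0.59, adjusted p 0.0224). The most abundant flanking genes, Tpm3, Chtop and Ints3, had log2 fold changes of -0.26, -0.25 and -0.06, which turned to 0.61, 0.62 and 0.81 under total-count scaling. Under total-count scaling Rab13 was at -0.35 and did not pass (adjusted p 0.215). Without AP.3 and AP.4 the adjusted p was 0.0544 and 0.0501 for Rab13 (range 0.000176 to 0.215) and 0.0766 and 0.0673 for Them5 (range 8.97e-05 to 0.0856).

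Genes of the envelope and of suprabasal cells elsewhere in the genome were set beside the EDC. Of 21 cornified envelope genes outside the cluster, 16 rose, with a median log2 fold change of 2.20. They included the desmosome gene Dsp (2.49, SE 0.38, adjusted p 0.00843), Dmkn (2.27, SE 0.37, adjusted p 0.00896), the protease inhibitor gene Cst6 (1.83, SE 0.21, adjusted p 0.00231) and Lypd5 (3.61, SE 0.52, adjusted p 0.00626). Sbsn, at 0.91 (SE 0.32, adjusted p 0.0816), did not pass, and of the left-out libraries only AP.2 brought it past the threshold (0.0454, range 0.00199 to 0.216). The count of 16 became 9 without AP.3 and 9 without AP.4.

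Of 15 suprabasal epidermis markers, 9 of which are also in the envelope list, 11 rose, with a median of 2.42. Krt10, the most abundant, had 1302, 4085, 2280.3 and 1838 normalized counts in VC and 15852, 17528, 47444 and 73321 in AP. Every AP library was far above VC, with AP.1 and AP.2 nearly equal and AP.3 and AP.4 higher. Krt10 rose by 3.85 on the log2 scale (SE 0.50, adjusted p 0.00367), Krt1 by 3.46 (SE 0.54, adjusted p 0.00843), Krt77 by 3.95 (SE 0.53, adjusted p 0.00435), Krt80 by 1.73 (SE 0.26, adjusted p 0.00648) and Dsc1 by 3.29 (SE 0.50, adjusted p 0.0078). The list summed to 7139.8, 14905, 10125 and 7239 normalized counts in VC and 42677, 45277, 122899 and 175945 in AP. The part of this difference in suprabasal transcripts in the EDC values was not tested.

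Of 11 basal keratinocyte markers, 6 rose (median 1.11), among them the hemidesmosome genes Itga6 (1.92, SE 0.31, adjusted p 0.00896) and Dst (1.56, SE 0.26, adjusted p 0.00896), while Krt14, Krt5 and Krt15 had log2 fold changes of 1.02, 0.94 and 0.25 and did not pass. The count was 2 without VC.1, VC.4, AP.3 or AP.4 and 3 without AP.2. It was 4 with total counts without mitochondrial genes and 1 with the transcript length trend removed, under which Dst lay 0.83 higher and did not pass (adjusted p 0.07, range 3.25e-06 to 0.07). The basal list summed to 30558, 85665, 54904 and 26070.2 normalized counts in VC and 59534, 58675, 109441 and 152722 in AP, so that the groups overlapped. Of 12 wound keratinocyte markers, 4 rose (median 2.16). Krt6b rose by 7.03 on the log2 scale (SE 1.42, adjusted p 0.0167), Krt16 by 4.02 (SE 0.80, adjusted p 0.0163) and Il24 by 3.47 (SE 0.86, adjusted p 0.0313), though Il24 had no VC library at 3 normalized counts and passed the filter only through AP, while Krt6a (2.10, SE 0.64, adjusted p 0.0556) and Krt17, the most abundant (0.56, SE 0.30, adjusted p 0.231), did not pass. The wound list summed to 6909, 9894, 10058 and 4397 normalized counts in VC and 7396, 19468, 38865 and 31206 in AP, with AP.1 inside the VC range, as it was for S100a9. Without AP.3 or AP.4 the count was 0, and it was 2 without VC.1 or VC.4. limma-voom called 1 and total-count scaling 10. Without AP.3 and AP.4 the adjusted p was 0.0563 and 0.0528 for Krt6b (range 0.000635 to 0.074), 0.0518 and 0.0509 for Krt16 (range 0.000419 to 0.0518), and 0.13 and 0.102 for Il24, which was at 0.0531 without VC.1 and 0.0513 without VC.4 (range 0.00194 to 0.13). Of the left-out libraries, VC.2 (0.0478) and AP.1 (0.00258) brought Krt6a past the threshold, with a range of 0.00258 to 0.155.

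Follicle lists gave the following values. Of 9 tested inner root sheath markers 2 rose (median 1.48): Krt72 by 4.06 on the log2 scale (SE 0.86, adjusted p 0.0188) and the transglutaminase gene Tgm3, also in the envelope list, by 2.75 (SE 0.45, adjusted p 0.00896). The list median ran from 0.86 without AP.2 to 1.96 without AP.1. The count was 4 without AP.1 and 1 without AP.2, AP.3 or AP.4, where Krt72 had adjusted p of 0.0627, 0.0633 and 0.0539 (range 0.000142 to 0.0983). Krt71 lay 2.01 higher (SE 0.61, adjusted p 0.0575), and of the left-out libraries only AP.1 brought it past the threshold (0.0201, range 0.00413 to 0.158). Krt71 also passed with edgeR (adjusted p 0.0406), with DESeq2 (0.0231) and under total-count scaling (0.00413). Krt25 had 0.99 and Krt28 -0.81, the latter turning to 0.06 under total-count scaling and passing the threshold without VC.4 (adjusted p 0.028, range 0.028 to 0.918). Of 11 hair shaft markers limma called 0 (median 1.59, 5 higher at an unadjusted p under 0.05, with edgeR calling 1, DESeq2 4 and limma-voom 0), and 1 without AP.1. Their median ran from 0.997 without VC.4 to 2.02 without VC.3. Their sum was 1714, 1333, 1539 and 493 normalized counts in VC and 585, 1859, 1574 and 783 in AP, with Krt35 the most abundant. Of 10 stem cell and outer root sheath markers limma called 0 (median 0.23, mean -0.12, 2 lower at an unadjusted p under 0.05, with edgeR calling 0, DESeq2 1 and limma-voom 0), and their sum was 11645 ± 2442 in VC and 11278 ± 2349 in AP (SD, n = 4 each). The median of this list ran from -0.05 without AP.3 to 0.22 without VC.1. Total-count scaling, which called 54.2% of all genes higher, called 7 inner root sheath, 8 hair shaft and 6 stem cell and outer root sheath markers higher.

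Markers of other cells follow. Of 12 fibroblast markers limma called 0 (median 0.49, 4 higher and 2 lower at an unadjusted p under 0.05). By tool, edgeR and limma-voom each called 1 lower, and DESeq2 called 1 higher and 2 lower. With AP.1 left out, limma called 2 lower, without VC.2, 1 lower, and without VC.4, 1 higher. The list median ran from 0.27 without AP.1 to 0.75 without VC.4. It was 0.17 with the transcript length trend removed and 1.36 under total-count scaling. Of 12 macrophage and leukocyte markers limma called 0 (7 lower at an unadjusted p under 0.05, with edgeR and limma-voom calling 0 and DESeq2 4), and the median of -0.82 turned to 0.05 under total-count scaling. Without AP.1 or VC.3, 2 were called lower, and without VC.2, 1. Lyz2, the most abundant, had a log2 fold change of -1.08 (adjusted p 0.0786, and 0.0406 without VC.3, the one library whose removal brought it past the threshold, range 0.0137 to 0.557). Of 10 adipocyte markers limma called 0 (median 0.05, 2 higher at an unadjusted p under 0.05, with edgeR, DESeq2 and limma-voom calling 0). Their median ran from -0.30 without AP.2 to 0.33 without VC.1, and removal of the transcript length trend gave 1 higher. Total-count scaling called 9 fibroblast, 2 macrophage and leukocyte and 4 adipocyte markers higher, and of lists given elsewhere 14 flanking genes, 21 envelope, 15 suprabasal, 11 basal and 3 neutrophil markers and 19 transcription factors.

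Of 12 skeletal muscle markers 1 fell, Tnnc2 (log2 fold change -2.05, SE 0.59, adjusted p 0.0497), with a list median of -1.78 that was -0.91 under total-count scaling. The muscle sum was 56960.4, 84245, 44319.9 and 45649 normalized counts in VC and 87146, 10909, 6551 and 13386 in AP. AP.1 was the highest of all libraries, so that without it all 12 were called lower, and without any other library the count was 0 (adjusted p of Tnnc2 between 0.058 and 0.131). Tnnc2 was also not called by edgeR (-1.51, adjusted p 0.133) or DESeq2 (-1.50, adjusted p 0.157) and passed in 5 of 19 alternatives (range 0.00223 to 0.157). Of 8 melanocyte markers 4 fell: Mlana (-2.03, SE 0.24, adjusted p 0.00237), Tyr (-1.37, SE 0.37, adjusted p 0.04), Pmel (-1.35, SE 0.38, adjusted p 0.0462) and Mitf. The list median of -0.78 turned to 0.09 under total-count scaling, and the count was 5 without VC.4 and 1 without any other library. It was 1 with total counts without mitochondrial genes, and total-count scaling called 1 lower and 1 higher. With any library other than VC.4 left out, Mlana was called, while adjusted p ran from 0.0612 to 0.106 for Tyr and from 0.0733 to 0.116 for Pmel. Over all alternatives the ranges were 0.00192 to 0.304 for Tyr and 0.00252 to 0.351 for Pmel. The part of muscle, melanocyte or leukocyte RNA in the EDC values was not tested.

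Among 21 transcription factors of epidermal differentiation, 4 rose, with a median log2 fold change of 0.46. Fos, a subunit of AP-1, had 287, 269, 468 and 317 normalized counts in VC and 2384, 1615, 2089.6 and 1728 in AP. The groups were far apart, and AP.2 was close to the other AP libraries. Fos rose by 2.56 on the log2 scale (SE 0.20, adjusted p 0.000634) and its partner Junb by 1.83 (SE 0.21, adjusted p 0.00231). Jun (1.19, SE 0.17, adjusted p 0.00628) and Klf4, a barrier regulator (1.07, SE 0.19, adjusted p 0.0108), rose as well and were named after their values were seen. The most abundant of the list, Cebpa, Jund and Cebpb, had log2 fold changes of 0.48, -0.09 and -0.09 and did not pass. Those of Jund and Cebpb turned to 0.78 under total-count scaling. Fos, Junb, Jun and Klf4 passed in all 19 alternatives, and without AP.1 the list count was 6.

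Promoters were read from RefSeq (GRCm38.p6) for 51 of the 56 members, as 250 bases before and 50 after the start. The AP-1 motif TGANTCA, searched on both strands, occurred in 17 of 51 (33.3%), against 2425 of 27025 genes with a promoter (8.97%). It was found in 7 of 11 Sprr, 5 of 7 fused-type, 2 of 3 other envelope and 3 of 11 S100a promoters, and in 0 of 19 Lce promoters. TATAAA on either strand occurred in 21 of 51 (41.2%), against 15.7% of all genes, and on the gene's own strand between 40 and 20 bases before the start in 16 (31.4%), against 2.41%. The Grainyhead-like motif AACCGGTT occurred in 0 of 51 members and in 0.174% of all genes. A variant TATA-like word, ATAAAA, was added after the Lce sequences had been read. It lay on the own strand between 40 and 20 bases before the start in 16 of 19 Lce promoters (84.2%), 23 of 51 members (45.1%) and 2.11% of all genes. TATAAA and ATAAAA can overlap. A match describes letters in the window and is neither a shown site nor a cause.

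The 120 bases before the start are given for 8 members, to show envelope, fused-type and Sprr promoters with an AP-1 motif beside Lce promoters without one. They read 5′ to 3′ on the gene's strand, and capitals mark TGANTCA and TATAAA.
Lor (chr3:92083143-92083262, minus strand): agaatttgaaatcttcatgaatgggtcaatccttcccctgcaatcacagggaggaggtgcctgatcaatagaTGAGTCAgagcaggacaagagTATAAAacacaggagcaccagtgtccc
Ivl (chr3:92573736-92573855, minus strand): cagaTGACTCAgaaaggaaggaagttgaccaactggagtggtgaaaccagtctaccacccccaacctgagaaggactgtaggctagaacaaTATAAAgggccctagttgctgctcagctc
Flg (chr3:93273426-93273545, plus strand): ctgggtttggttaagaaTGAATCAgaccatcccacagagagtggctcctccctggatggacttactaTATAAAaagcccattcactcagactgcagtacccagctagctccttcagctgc
Flg2 (chr3:93197153-93197272, plus strand): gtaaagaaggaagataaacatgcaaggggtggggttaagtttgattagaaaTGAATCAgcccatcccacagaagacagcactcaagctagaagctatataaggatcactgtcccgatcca
Sprr1a (chr3:92485882-92486001, minus strand): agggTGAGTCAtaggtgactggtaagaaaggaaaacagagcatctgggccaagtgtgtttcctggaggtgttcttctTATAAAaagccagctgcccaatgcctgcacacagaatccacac
Sprr1b (chr3:92438780-92438899, minus strand): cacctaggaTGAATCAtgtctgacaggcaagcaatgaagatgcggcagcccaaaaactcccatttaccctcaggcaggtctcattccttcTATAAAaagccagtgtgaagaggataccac
Lce1m (chr3:93019062-93019181, minus strand): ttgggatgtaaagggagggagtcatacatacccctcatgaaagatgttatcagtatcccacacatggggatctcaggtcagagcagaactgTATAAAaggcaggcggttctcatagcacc
Lce1b (chr3:92656927-92657046, minus strand): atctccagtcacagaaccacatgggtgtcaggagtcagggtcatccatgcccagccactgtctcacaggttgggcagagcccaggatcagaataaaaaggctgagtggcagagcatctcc
In these stretches the AP-1 motif began 48 bases before the start in Lor, 116 in Ivl and Sprr1a, 111 in Sprr1b, 103 in Flg and 69 in Flg2. TATAAA began 27 bases before the start in Lor, 29 in Ivl and Lce1m, 30 in Sprr1b, 43 in Sprr1a and 53 in Flg. Of these genes, Lor, Ivl, Flg, Flg2, Sprr1a, Sprr1b and Lce1m rose, with or without the AP-1 motif, and Lce1b did not pass the test. Among fused-type and other envelope members not shown, Rptn and Crnn had the motif 96 bases before the start and did not pass. Hrnr, Tchh and Cnfn had no such motif in the window and rose.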

How the data were processed

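RNA-seq libraries of 4 VC and 4 AP skin samples were compared. Per the labels and the study's methods, the authors aligned reads to mm10 with STAR, counted them per gene (the labels name HTSeq, the methods featureCounts) and normalized with DESeq2. The deposited signal values are counts divided by 1 size factor per library. All 150160 of 150160 values (100%) were whole reads within a tolerance of 0.1 read, so reads were recovered. The 6 columns of the authors' own comparison (mean, fold change, its error, statistic and p-values) were not used.

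The main test was limma 3.58.1 (R 4.3.3) with an intensity trend on log2(normalized count + 1), on genes reaching 3 normalized counts in 4 or more of the 8 libraries, with Benjamini-Hochberg adjustment over 15964 genes; a call is an adjusted p under 0.05, and adjusted p-values in the text are limma's unless another tool is named. Alternatives were edgeR 4.0.16 quasi-likelihood (1003 genes higher, 712 lower), DESeq2 1.42.0 and limma-voom on the recovered reads, pseudocounts of 0.5 and 5, no filter or a mean of at least 10, upper-quartile and total-count scaling, total counts without mitochondrial genes, the criteria of the study's methods (p under 0.01, fold over 1.5) and each library left out. Removal of the transcript length trend (loess, span 0.3, genes with a mean of at least 50) was added after the data were seen.

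Named with values were the members given by full name. In Lce, Sprr and S100a, named members were those called, the 3 highest per kb and those with the largest and smallest fold change. Of each of the 16 marker lists, the 3 most abundant genes and those called were named, at most 5. Members and lists were chosen with earlier results of these data known. A floor of 3 reads over the VC group is 1.20 normalized counts; per library it is 4.10 to 5.63 in VC and 1.49 to 2.18 in AP. Coordinates and transcript lengths are from GENCODE, which held 18766 of the 18770 identifiers.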

Additional observations from a re-analysis of the deposited data

Results flagged for a closer look

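Dixon's ratio for 4 values was taken over 194 groups of libraries, of named genes and of subfamily means on the log2 scale, and 14 exceeded the critical value that about 1 group in 20 exceeds by chance. In order of library number, Flg2 in AP had 8.87, 4.50, 9.62 and 8.80, with AP.2 lowest (0.839). Lce1m in AP had 10.29, 4.19, 10.37 and 9.40, with AP.2 lowest (0.844). Tchhl1 in VC had 0, 0, 2.69 and 0 (1.0), Sprr2h in VC 0, 0, 1.24 and 0 (1.0) and Il24 in VC 0, 0, 1.24 and 0 (1.0), each highest in VC.3. Crct1 in VC had 7.65, 6.23, 6.17 and 6.35 (0.878) and S100a10 in VC 12.80, 11.85, 11.91 and 11.96 (0.891), both highest in VC.1. Pglyrp4 in VC had 3.96, 5.001, 4.002 and 3.82, highest in VC.2 (0.846).

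VC.4 stood apart in the rest. It was lowest for Crnn in VC, with 4.997, 4.34, 4.23 and 0 (0.846), for Krt77 in VC, with 9.84, 9.70, 9.68 and 8.56 (0.877), and for Tyrp1 in VC, with 9.32, 9.36, 9.10 and 7.38 (0.871). It was also lowest for the fused-type mean log2 level in VC, with 5.34, 5.21, 5.40 and 3.86 (0.875). It was highest for Tpm3 in VC, with 10.69, 10.74, 10.73 and 11.09 (0.873), and for Postn in VC, with 11.35, 11.31, 11.51 and 13.15 (0.891).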

How the results depend on the processing

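All genes called were 1650, against 3039 with DESeq2 and 8727 under total-count scaling. They were 846 without VC.1, 553 without AP.2, 303 without AP.3 and 393 without AP.4 (range 303 to 1899). Of EDC members called higher, 14 became 18 with edgeR, 20 with DESeq2, 6 with limma-voom and 31 under total-count scaling, and leaving out AP.3 or AP.4 gave 4 or 5 (range 4 to 20), while members called lower stayed at 0. Subfamily medians without 1 library ran from 2.10 to 3.27 in Lce, 1.49 to 2.35 in Sprr, -0.47 to -0.21 in S100a, 2.83 to 3.35 in the fused-type genes and 2.49 to 3.34 in the other envelope genes. The S100a median turned to 0.48 under total-count scaling. Of calls over all genes 61.3% were higher, against 99.2% under total-count scaling, 52.2% under upper-quartile scaling and 49.7% with limma-voom. The cause of these shifts was not tested.

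Under total-count scaling these log2 fold changes turned positive: C1qb 0.0877, Car3 0.38, Cebpb 0.78, Chtop 0.62, Csf3r 0.0703, Dct 0.037, Hoxc13 0.59, Ints3 0.81, Jund 0.78, Krt28 0.0576, Krt35 0.27, Postn 0.28, S100a10 0.33, S100a11 0.48, S100a3 0.15, S100a6 0.37, Tpm3 0.61 and Tyrp1 0.37. Of these S100a11 (adjusted p 0.031), Tpm3 (0.0126), Chtop (0.0108), Ints3 (0.00428), Jund (0.00646) and Cebpb (0.0239) passed the threshold. With the transcript length trend removed, Cebpb turned to 0.12 and Jund to 0.0816. With 1 library left out, Cebpb ran from -0.22 to 0.051, Hoxc13 from -0.71 to 0.12, Il1r2 from -0.0792 to 0.47 and Jund from -0.27 to 0.0522, with 0.00187 without AP.2. Of the values of named genes under the other alternatives, 918 kept the call, 33 were stronger, 29 weaker and 20 reversed. With 1 library left out, 621 kept it, 15 were stronger, 87 weaker and 5 reversed.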
